A study of Saccharomyces cerevisiae with 30 samples.

Results

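The genes described here are 10 genes of pyrimidine synthesis and uptake in budding yeast: URA2, URA4, URA1, URA5, URA10, URA6, URA7, URA8, FUR1 and FUI1. They were chosen by name, with earlier results of these data known. The array's annotation gave exactly 1 probe set to each, so that 10 of the 5656 genes with a named probe set are members. All 10 had a mean signal above the limit for dim genes and are among the 4242 genes tested. URA10 lay below that limit on every untreated array (log2 5.40 to 6.46, against 6.53). Its mean of 6.91 passed only through its higher signal after UV. URA3, another gene of the pathway, was left out because it served as the deletion marker in the strains without RAD23, and its values are given only as a check.

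Levels were measured on 30 Affymetrix Yeast S98 arrays, each with 1 RNA sample, that make 12 groups of 4 strains and 3 times. All strains derive from BY4742, a MATα laboratory strain that needs added uracil because its own URA3 is deleted, and the study's methods give the host of the plasmids as rad7Δ. The psocs rad23Δ and pRAD7 rad23Δ strains, in which URA3 replaces RAD23, had 2 arrays per group. The psocs and pRAD7 strains, which keep RAD23, had 3 arrays per group. The plasmid psocs carries RAD7 with point mutations in its SOCS box, the part of Rad7 that joins it to an E3 ubiquitin ligase, and pRAD7 carries wild-type RAD7, both in pRS313. Cells of every group grew at 30 °C to late log phase in medium without histidine, and were taken untreated or at 15 or 60 min after 100 J/m2 of UV at 254 nm. The replicates are numbered and labelled biological, but nothing says that they came from separate cultures, and the p-values therefore cover the spread among these arrays, which may be technical.

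Pyrimidine nucleotides are made in a chain of steps that ends in UTP and CTP. Ura2 joins carbamoyl phosphate to aspartate, Ura4 (dihydroorotase) closes the ring, Ura1 (dihydroorotate dehydrogenase) oxidises it to orotate, Ura5 and its paralogue Ura10 (orotate phosphoribosyltransferases) attach the ribose phosphate, and Ura3 then forms UMP. Ura6 (uridylate kinase) phosphorylates UMP, and Ura7 and its paralogue Ura8 (CTP synthases) turn UTP into CTP, while Fur1 (uracil phosphoribosyltransferase) and Fui1 (a uridine permease) serve salvage and uptake. UTP inhibits Ura2, and the activator Ppr1, which responds to the intermediates dihydroorotate and orotate, raises transcription of URA1, URA3, URA4 and URA10.

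The values per array are the deposited signals, on a linear scale on which the authors scaled every array to nearly the same mean. The differences are on a log2 scale after each array was centred on a common median, and are given with their standard error (SE). The words rose and fell are kept for genes with an adjusted p under 0.05 over the 4242 genes by limma, an empirical Bayes linear model fitted to all 30 arrays. Where a count at an unadjusted p under 0.05 stands without the number over all genes, no result is read from it. Signals of different genes come from different probes and are not compared. The number of arrays limits the precision, with a median SE of 0.18 for the change 60 min after UV in pRAD7 and of 0.28 for a difference between the changes in a RAD23 deletion strain and its parent.

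The RAD23 and URA3 states and the mating type were borne out by the marker signals. RAD23 read 1.26 to 4.40 on the 12 arrays of the rad23Δ strains, against 605 to 1572 on the 18 others, and URA3 read 241 to 614 on the rad23Δ arrays, against 0.762 to 9.78 on the others. RAD7 read 17.4 to 54.2 with the psocs plasmid, against 242 to 1167 with pRAD7, so that the plasmids also differ in the RAD7 signal. The labels do not account for that difference, and it cannot be told apart from the SOCS box mutation. The 4 α-specific genes of the mating type read 1008 or more on every array, and the 6 a-specific genes read 293 or less. At 15 min, 2 rad23Δ arrays stood apart, with a median log2 signal of 16 stress genes of 9.40 (pRAD7 rad23Δ replicate 2) and 9.37 (psocs rad23Δ replicate 1), against 10.4 to 11.2 on the other arrays of that time. On untreated arrays the same median was 7.87 to 8.39 in the rad23Δ strains and 7.05 to 7.57 in the RAD23 strains. Whether this goes with the untreated differences between strains below was not tested. Since URA3 replaced RAD23, loss of RAD23 and presence of a working URA3 cannot be told apart in any comparison of strains below.

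**Figure D1:**
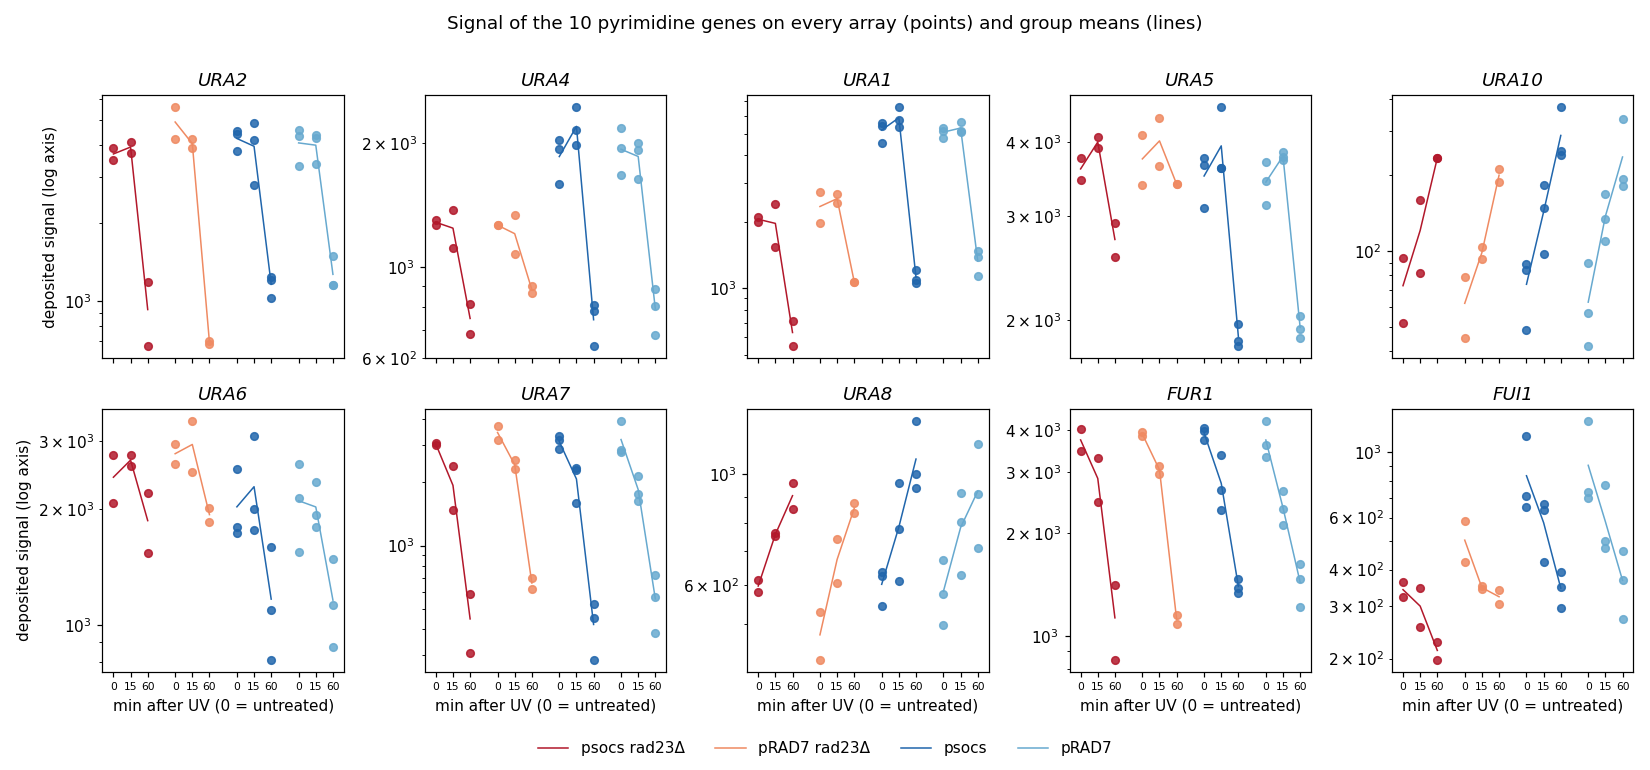
Deposited signal (log axis, each panel with its own range) of the 10 pyrimidine genes against time after UV (0 for untreated, then 15 and 60 min) in psocs rad23Δ, pRAD7 rad23Δ, psocs and pRAD7. Points are single arrays and lines join group means; URA1, URA4 and FUI1 start lower in both rad23Δ strains, and URA5 stays at 2551 or above at 60 min in them.

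Before any UV, URA1 was lower in both strains without RAD23. It read 2715 and 1971 in untreated pRAD7 rad23Δ, against 5285, 4788 and 5163 in pRAD7. It read 1992 and 2110 in untreated psocs rad23Δ, against 5412, 4553 and 5599 in psocs. The groups did not overlap with either plasmid, and the 4 rad23Δ arrays all lay below the 6 RAD23 arrays. Of all genes, 9.38% with pRAD7 and 12.7% with psocs lay lower in the rad23Δ strain without overlap after centring. The log2 difference was -1.15 ± 0.18 with pRAD7 (SE, limma adjusted p = 0.0011), a level 2.22-fold lower in the rad23Δ strain, and -1.35 ± 0.18 with psocs (adjusted p = 3.14e-04), a level 2.55-fold lower. By p-value URA1 ranked 7 of 4242 genes with pRAD7 and 2 of 4242 with psocs. In pRAD7 rad23Δ it was the only member past the threshold, where 1.20% of all genes tested were. It kept its call in all 5 fits that left out 1 array, with each plasmid.

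URA4, the enzyme of the step before Ura1, differed in the same direction but did not pass the test. It read 1263 and 1260 in pRAD7 rad23Δ, against 1944, 1672 and 2171 in pRAD7. It read 1263 and 1301 in psocs rad23Δ, against 1935, 1590 and 2031 in psocs. No rad23Δ array reached the lowest RAD23 array, but 9.38% of all genes with pRAD7 and 12.7% with psocs were lower without overlap. The log2 differences were -0.62 ± 0.17 with pRAD7 (limma adjusted p = 0.0706) and -0.54 ± 0.17 with psocs (adjusted p = 0.14), and with pRAD7 the first passed the threshold on the deposited scale without centring (-0.60, adjusted p = 0.0442) and after quantile normalization (-0.61, adjusted p = 0.0473).

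FUI1, the uridine permease, fell in psocs rad23Δ, where 1.04% of all genes were past the threshold and 2 of 10 members were, URA1 and FUI1. FUI1 read 322 and 362 in untreated psocs rad23Δ, against 653, 1130 and 710 in psocs. In untreated pRAD7 rad23Δ it read 583 and 423, against 698, 1277 and 730 in pRAD7. Replicate 2 was the highest array of both RAD23 groups. Neither pair of groups overlapped, as for 12.7% of all genes with psocs and 9.38% with pRAD7 that were lower without overlap. The log2 differences were -1.26 ± 0.28 with psocs (limma adjusted p = 0.0268) and -0.82 ± 0.28 with pRAD7 (adjusted p = 0.129). The psocs call was lost in 3 of 5 fits that left out 1 array, namely psocs replicate 2 (-1.04), psocs rad23Δ replicate 1 (-1.13) and psocs rad23Δ replicate 2 (-1.38).

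The other 7 members gave no call between untreated strains. Their log2 differences ran from -0.31 (URA8) to 0.42 (URA6) with pRAD7 and from -0.21 (URA2) to 0.25 (URA6) with psocs. URA10, which like URA1 and URA4 is a Ppr1 target, differed by -0.02 ± 0.37 with pRAD7 and by -0.05 ± 0.37 with psocs. Its untreated arrays all lay below the limit for dim genes, so these values say little on whether URA10 differed. Among the purine synthesis genes, a list given for comparison, 0 of 19 passed with either plasmid, where 1.20% of all genes passed with pRAD7 and 1.04% with psocs. At an unadjusted p under 0.05 it was 0 of 19 with pRAD7 and 1 of 19 with psocs. Their medians were 0.11 with pRAD7 and 0.04 with psocs.

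**Figure D2:**
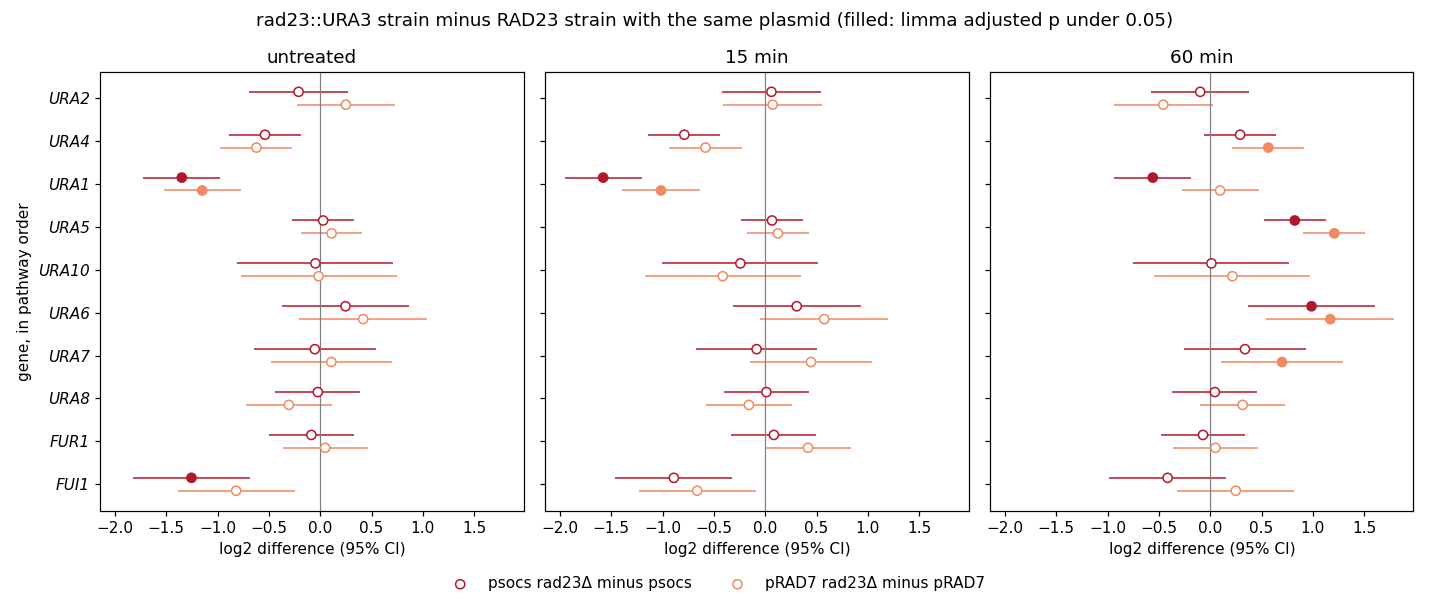
Log2 difference (x axis, with 95% confidence interval) of each pyrimidine gene between the rad23Δ strain and the RAD23 strain with the same plasmid, psocs above pRAD7 in each row, untreated and at 15 and 60 min after UV. Filled points passed the limma test: URA1 lies at -1.15 and -1.35 untreated, and URA5 at 1.21 (pRAD7) and 0.82 (psocs) at 60 min.

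The URA1 difference was still present at 15 min. URA1 read 2661 and 2423 in pRAD7 rad23Δ, against 5149, 5110 and 5637 in pRAD7, a log2 difference of -1.02 ± 0.18 (limma adjusted p = 0.0151). It read 2401 and 1530 in psocs rad23Δ, against 5342, 5740 and 6600 in psocs, a difference of -1.58 ± 0.18 (adjusted p = 2.1e-05). Every rad23Δ array lay below every RAD23 array. Of all genes, 8.86% with pRAD7 and 9.90% with psocs were lower without overlap. At this time few genes separated the strains at all. With pRAD7, 0.0943% of all genes tested were past the threshold, and these 4 genes were RAD23 itself, URA1, TUB4 and ZPS1. With psocs it was 0.141%, namely RAD23, URA1, RIB4, MDH2, ALT2 and CIP1. Those other genes are named because so few passed, after their values were seen. URA1 was thus 1 of 10 members called with each plasmid.

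The array of psocs rad23Δ with 1530 was replicate 2, not the array of that group with the low stress signal. Without the 2 arrays of low stress signal URA1 kept its call with both plasmids. The pRAD7 call was lost when pRAD7 replicate 2 (-1.03), pRAD7 replicate 3 (-0.97) or pRAD7 rad23Δ replicate 2 (-0.92) was left out, with adjusted p up to 0.0895. A fit to only the groups compared gave no call for URA1 with pRAD7 (adjusted p = 0.228) or psocs (adjusted p = 0.167). URA4 differed by -0.58 ± 0.17 with pRAD7 (limma adjusted p = 0.13) and by -0.79 ± 0.17 with psocs (adjusted p = 0.0682), and FUI1 by -0.66 ± 0.28 and -0.89 ± 0.28 (adjusted p = 0.301 and 0.278).

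Most of the pathway was lower 60 min after UV in both RAD23 strains. In pRAD7, 8 of 10 members fell and 1 rose, against 36.1% of all genes tested that fell and 28.7% that rose. In psocs, 8 of 10 fell and 2 rose, against 34.0% and 30.8% of all genes. The median log2 change of the members was -1.55 in pRAD7, against -0.11 over all genes, and -1.47 in psocs, against -0.06 over all genes. Because the members were chosen with earlier results of these data known, these shares and medians are a description only. The members called in pRAD7 kept their calls in every fit that left out 1 array, on the deposited scale and after quantile normalization.

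URA7, the major CTP synthase gene, had the largest change of the members in both RAD23 strains. It read 381, 723 and 566 at 60 min in pRAD7, against 2806, 2857 and 3938 untreated. In psocs it read 285, 527 and 449 at 60 min, against 2895, 3327 and 3171 untreated. Every array at 60 min was far below every untreated array. Of all genes, 39.9% in pRAD7 and 35.0% in psocs were lower at 60 min without overlap. The log2 changes were -2.83 ± 0.26 in pRAD7 (limma adjusted p = 3.94e-09), a 7.09-fold fall, and -3.14 ± 0.26 in psocs (adjusted p = 7.02e-10), an 8.82-fold fall.

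URA1 came next. It read 1389, 1468 and 1135 at 60 min in pRAD7, against 5285, 4788 and 5163 untreated, and its log2 change was -2.21 ± 0.16 (limma adjusted p = 2.9e-10). In psocs it read 1092, 1214 and 1058 at 60 min, against 5412, 4553 and 5599 untreated, a change of -2.41 ± 0.16 (adjusted p = 5.24e-11). The spread within each time was small beside this fall of 4.63-fold in pRAD7 and 5.30-fold in psocs. URA2, the entry enzyme, read 1497, 1156 and 1152 at 60 min in pRAD7, against 4562, 4341 and 3324 untreated, a change of -1.95 ± 0.21. In psocs URA2 changed by -2.07 ± 0.21. No array at 60 min of either strain reached an untreated array, as for 39.9% of all genes in pRAD7 and 35.0% in psocs.

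The remaining falls were smaller, with close values in psocs and pRAD7. URA4 changed by -1.56 ± 0.15 in pRAD7 and -1.52 ± 0.15 in psocs, FUR1 by -1.65 ± 0.18 and -1.69 ± 0.18, and FUI1 by -1.54 ± 0.25 and -1.43 ± 0.25. URA5 changed by -1.09 ± 0.13 in pRAD7 and -1.10 ± 0.13 in psocs, and URA6 by -1.13 ± 0.27 and -1.03 ± 0.27. The largest of these 10 limma adjusted p-values was 0.00192, for URA6 in psocs.

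The minor paralogues URA10 and URA8 did not fall with their partners URA5 and URA7. URA10, the minor orotate phosphoribosyltransferase gene, read 334, 181 and 194 at 60 min in pRAD7, against 56.5, 89.5 and 41.9 untreated. In psocs it read 373, 240 and 249 at 60 min, against 88.5, 84.4 and 48.4 untreated. The groups did not overlap in either strain, where 30.8% of all genes in pRAD7 and 32.2% in psocs were higher without overlap. The log2 changes were 1.66 ± 0.33 in pRAD7 (limma adjusted p = 1.24e-04) and 1.78 ± 0.33 in psocs (adjusted p = 5.01e-05), where URA5 fell. The untreated URA10 arrays lay below the limit for dim genes, so that URA10 was tested only because of its signal after UV. Both calls were kept in the fit with no filter on dim genes. URA8, the minor CTP synthase gene, read 1282, 1000 and 938 at 60 min in psocs, against 635, 625 and 544 untreated, and rose by 0.63 ± 0.18 (adjusted p = 0.00391). In pRAD7 URA8 read 1153, 711 and 911 at 60 min, against 576, 672 and 499 untreated, a change of 0.38 ± 0.18 that did not pass (adjusted p = 0.0672). That value was 0.65 on the deposited scale (adjusted p = 0.00345) and 0.42 after quantile normalization (adjusted p = 0.0446).

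**Figure D3:**
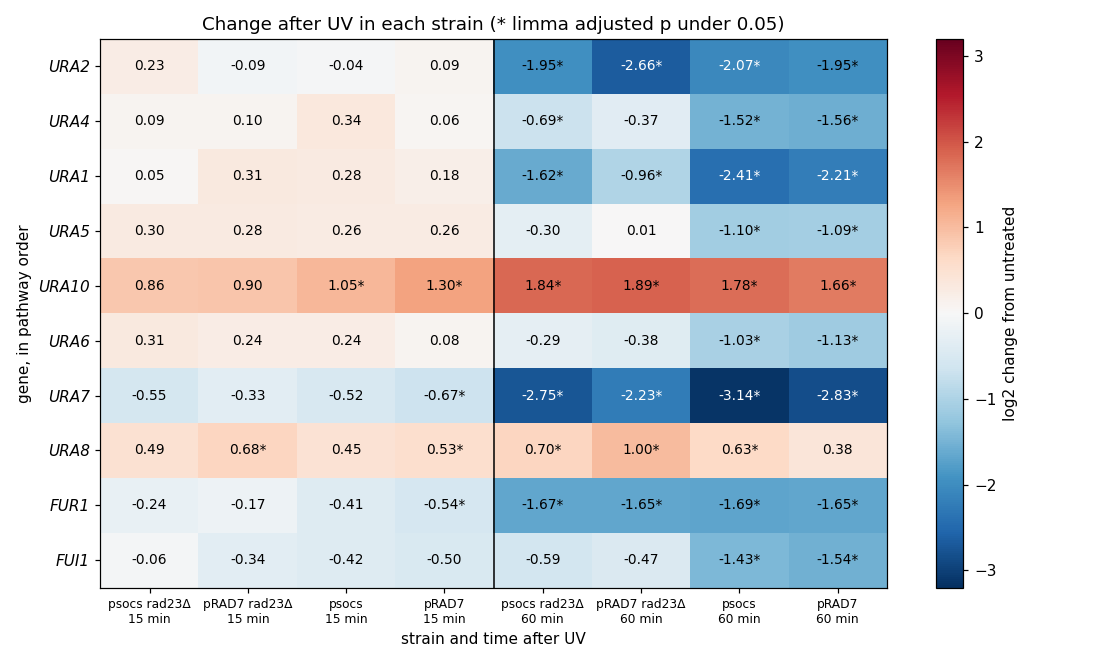
Log2 change from untreated at 15 min (left of the line) and 60 min (right of it) after UV in psocs rad23Δ, pRAD7 rad23Δ, psocs and pRAD7, with the value printed in each cell and an asterisk where limma's adjusted p was under 0.05. At 60 min URA7, URA1, URA2 and FUR1 are blue in all 4 strains and URA10 is red in all 4, while URA5 ranges from -1.10 in psocs to 0.01 in pRAD7 rad23Δ.

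At 15 min the share of members called in pRAD7 was near that of all genes, and fewer members were called in the other strains. In pRAD7, URA10 (1.30 ± 0.33) and URA8 (0.53 ± 0.18) rose and URA7 (-0.67 ± 0.26) and FUR1 (-0.54 ± 0.18) fell, 4 of 10 members against 37.3% of all genes. URA7 read 1625, 2156 and 1764 at 15 min in pRAD7 and did not reach the untreated arrays, which lay at 2806 or above. Of all genes, 18.9% were lower there without overlap. The URA7, URA8 and FUR1 calls were each lost in 3 or 4 of 6 fits that left out 1 array, while that of URA10 was not. The URA8 call was also lost on the deposited scale (0.42, limma adjusted p = 0.0771) and after quantile normalization (0.37, adjusted p = 0.119). FUI1 did not pass in pRAD7 (-0.50 ± 0.25, adjusted p = 0.118) or psocs (-0.42 ± 0.25, adjusted p = 0.198), and passed in pRAD7 after quantile normalization (-0.65, adjusted p = 0.0471) and without 15 min replicate 2 (-0.73, adjusted p = 0.0323). In psocs only URA10 passed (1.05 ± 0.33, limma adjusted p = 0.0165; 33.8% of all genes), and its call was lost without untreated replicate 3 (0.82) or without 15 min replicate 1 (0.86). URA8 passed in pRAD7 rad23Δ (0.68 ± 0.22, adjusted p = 0.0399; 14.8% of all genes) and lost its call in all 4 fits that left out 1 array. In psocs rad23Δ 0 of 10 members passed by limma (16.9% of all genes), with 2 of 10 at an unadjusted p under 0.05. URA1, URA2, URA4, URA5 and URA6, which fell in both RAD23 strains by 60 min, had changes between -0.09 and 0.34 at 15 min in all 4 strains. Between 15 and 60 min, 8 of 10 members fell in pRAD7 (33.3% of all genes fell) and 8 of 10 in psocs (32.1%). In the same interval 5 of 10 fell in pRAD7 rad23Δ (24.0%) and 6 of 10 in psocs rad23Δ (24.3%), where groups had fewer arrays.

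In the rad23Δ strains fewer members passed the test for a fall by 60 min. Their groups had 2 arrays, against 3 in the RAD23 strains, so that the counts of calls are not directly comparable. In pRAD7 rad23Δ 4 of 10 fell and 2 rose, against 28.2% and 32.6% of all genes, and in psocs rad23Δ 5 of 10 fell and 2 rose, against 28.8% and 31.2%. URA7 fell by 2.23 ± 0.31 on the log2 scale in pRAD7 rad23Δ and by 2.75 ± 0.31 in psocs rad23Δ. URA2 read 704 and 684 at 60 min in pRAD7 rad23Δ, against 5611 and 4203 untreated, a change of -2.66 ± 0.25. It read 1185 and 671 at 60 min in psocs rad23Δ, against 3879 and 3511 untreated, a change of -1.95 ± 0.25. FUR1 changed by -1.65 ± 0.22 and -1.67 ± 0.22, URA1 by -0.96 ± 0.20 and -1.62 ± 0.20, URA10 by 1.89 ± 0.40 and 1.84 ± 0.40 and URA8 by 1.00 ± 0.22 and 0.70 ± 0.22, in pRAD7 rad23Δ first and psocs rad23Δ second, all past the threshold. URA4 fell in psocs rad23Δ (-0.69 ± 0.19, limma adjusted p = 0.00294) and did not pass in pRAD7 rad23Δ (-0.37 ± 0.19, adjusted p = 0.0872), where it passed on the deposited scale (-0.52) and after quantile normalization (-0.61). URA5, URA6 and FUI1 gave no call in either rad23Δ strain after centring. URA5 in psocs rad23Δ changed by -0.30, and fell on the deposited scale (-0.40, adjusted p = 0.0124) and after quantile normalization (-0.42, adjusted p = 0.00597). FUI1 in psocs rad23Δ (-0.59) passed in a fit to only the groups compared (adjusted p = 0.0342).

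The difference between strains in the change at 60 min was tested itself. With pRAD7, the change in the rad23Δ strain minus that in the RAD23 strain passed the test above 0 for 4 of 10 members. Of all genes, 18.6% were called in that direction. The difference was 1.25 ± 0.26 for URA1 (limma adjusted p = 9.45e-04), 1.19 ± 0.24 for URA4 (adjusted p = 8.17e-04), 1.10 ± 0.21 for URA5 (adjusted p = 3.9e-04) and 1.07 ± 0.39 for FUI1 (adjusted p = 0.0414). The first 3 kept their calls in all 10 fits that left out 1 array. They also kept them on the deposited scale, where they were 0.83, 0.77 and 0.68, and after quantile normalization, where they were 0.78, 0.88 and 0.56. The FUI1 call was lost on both these scales (0.65 and 1.01) and in 6 of 10 fits that left out 1 array. URA2 had a difference below 0, which did not pass after centring (-0.71 ± 0.33, adjusted p = 0.106) but did on the deposited scale (-1.13, adjusted p = 0.00724) and after quantile normalization (-1.02, adjusted p = 0.0151).

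With psocs, the same difference passed for 2 of 10 members, URA4 (0.83 ± 0.24, limma adjusted p = 0.0329) and URA5 (0.80 ± 0.21, adjusted p = 0.0174), where 5.14% of all genes were called in that direction. URA1 lay at 0.79 ± 0.26 (adjusted p = 0.054). On the deposited scale neither passed, with 0.54 for URA4 (adjusted p = 0.107) and 0.50 for URA5 (adjusted p = 0.0519). After quantile normalization URA4 passed (0.72) and URA5 did not (0.43). A fit to only the groups compared called neither (adjusted p = 0.0986 and 0.074). Of 10 fits that left out 1 array, the URA4 call was lost in 6 (0.70 to 0.90 there) and the URA5 call in 2, without psocs rad23Δ untreated replicate 2 (0.77) or 60 min replicate 1 (0.65). When psocs rad23Δ was set against pRAD7, URA4 (0.87 ± 0.24, adjusted p = 0.0216) and URA5 (0.78 ± 0.21, adjusted p = 0.017) passed again, against 7.50% of all genes. Both calls were lost on the deposited scale and after quantile normalization (0.66 for URA4, adjusted p = 0.057, and 0.32 for URA5, adjusted p = 0.234). Each was also lost in some of the fits that left out 1 array. The comparison against pRAD7 uses the same psocs rad23Δ arrays as the one against psocs. At 15 min 0 of 10 members, and 0 of 4242 genes, differed in their change between a rad23Δ strain and its RAD23 parent by limma. At an unadjusted p under 0.05 it was 0 of 10 members with either plasmid, and 144 genes with pRAD7 and 221 with psocs.

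**Figure D4:**
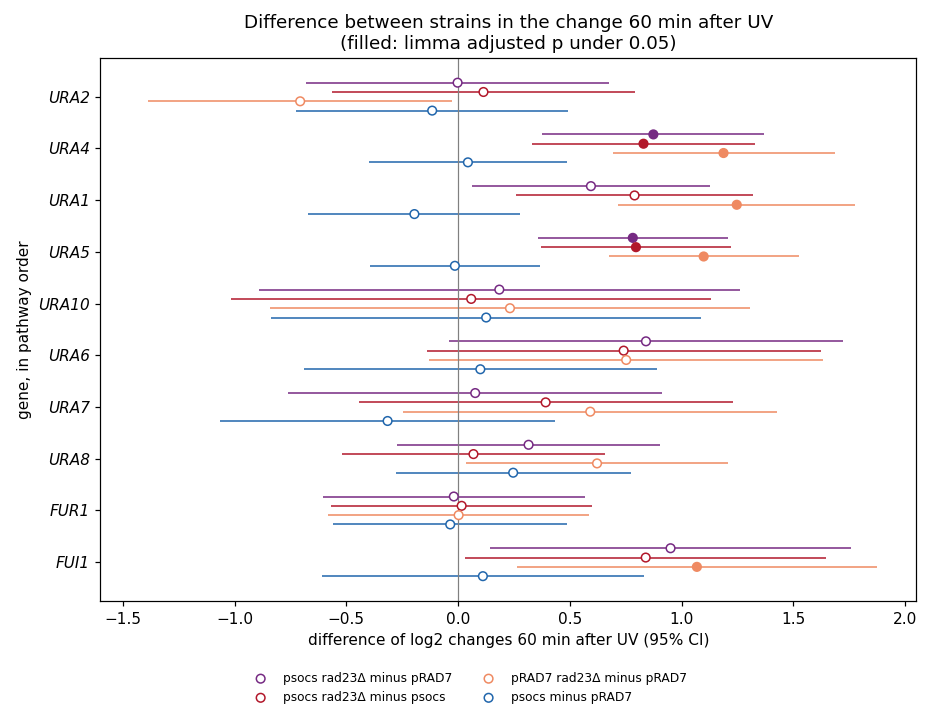
Difference between strains in the log2 change 60 min after UV (x axis, with 95% confidence interval) for each pyrimidine gene, with psocs rad23Δ minus pRAD7, psocs rad23Δ minus psocs, pRAD7 rad23Δ minus pRAD7 and psocs minus pRAD7 in order down each row. Filled points passed the limma test; URA4 and URA5 are filled in the 3 comparisons of a rad23Δ strain and none is filled for psocs minus pRAD7.

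Members with a different change at 60 min had their strain differences at different times. URA1 was lower in pRAD7 rad23Δ before UV and gave no call at 60 min. It read 1067 and 1073 at 60 min in pRAD7 rad23Δ, against 1389, 1468 and 1135 in pRAD7, a log2 difference of 0.10 ± 0.18 after centring (limma adjusted p = 0.686) and of -0.31 on the deposited scale. URA4, whose difference before UV did not pass, read 863 and 896 at 60 min in pRAD7 rad23Δ, against 884, 801 and 683 in pRAD7, signals that overlap. Its difference, -0.62 untreated, was 0.57 ± 0.17 at 60 min after centring (adjusted p = 0.00864) but 0.16 on the deposited scale (adjusted p = 0.408) and 0.27 after quantile normalization (adjusted p = 0.166).

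URA5 gave a call between the strains at 60 min and at neither other time. It read 3392 and 3399 at 60 min in pRAD7 rad23Δ, against 1933, 2031 and 1862 in pRAD7. It read 2922 and 2551 at 60 min in psocs rad23Δ, against 1805, 1969 and 1843 in psocs. All 4 rad23Δ arrays lay above all 6 RAD23 arrays. After centring, 48.2% of all genes with pRAD7 and 33.0% with psocs were higher without overlap. The log2 differences were 1.21 ± 0.15 with pRAD7 (limma adjusted p = 6.74e-07) and 0.82 ± 0.15 with psocs (adjusted p = 2.66e-04), and both passed on the deposited scale (0.81 and 0.55) and after quantile normalization (0.76 and 0.53). Untreated, URA5 differed by 0.11 ± 0.15 with pRAD7 and 0.03 ± 0.15 with psocs, with overlapping signals.

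URA6 was also higher at 60 min without RAD23. It read 1849 and 2012 in pRAD7 rad23Δ, against 1477, 1122 and 876 in pRAD7, a log2 difference of 1.17 ± 0.30 (limma adjusted p = 0.00284). It read 2191 and 1533 in psocs rad23Δ, against 1593, 1093 and 811 in psocs, a difference of 0.99 ± 0.30 (adjusted p = 0.0179). The signals overlapped with psocs and did not with pRAD7, where 48.2% of all genes were higher without overlap after centring. The psocs call was lost on the deposited scale (0.71, adjusted p = 0.0639), after quantile normalization (0.77, adjusted p = 0.0527) and in 2 of 5 fits that left out 1 array, psocs replicate 3 (0.73) and psocs rad23Δ replicate 1 (0.68). The difference in the change of URA6 itself did not pass with either plasmid (0.75 ± 0.43 and 0.74 ± 0.43).

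In all, 4 of 10 members were higher in pRAD7 rad23Δ than in pRAD7 at 60 min (33.3% of all genes), URA4, URA5, URA6 and URA7. The URA7 call (0.70 ± 0.29, limma adjusted p = 0.0482) was lost on the deposited scale (0.30), after quantile normalization (0.51) and in 4 of 5 fits that left out 1 array. With psocs, URA5 and URA6 were higher, against 17.7% of all genes, and URA1 was lower, against 8.98%. URA1 read 715 and 548 at 60 min in psocs rad23Δ, against 1092, 1214 and 1058 in psocs, a difference of -0.56 ± 0.18 (adjusted p = 0.0246) that lost its call in 3 of 5 fits that left out 1 array, with -0.32 without psocs rad23Δ replicate 2. URA2 was lower in pRAD7 rad23Δ than in pRAD7 on the deposited scale (-0.86, adjusted p = 0.0028) and after quantile normalization (-0.76, adjusted p = 0.00654), and did not pass after centring (-0.46 ± 0.23, adjusted p = 0.108).

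The scale matters for all strain comparisons at 60 min, because centring moved the RAD23 arrays of that time by -0.33 to -0.17 and the rad23Δ arrays by -0.01 to 0.12. Of the genes called between pRAD7 rad23Δ and pRAD7 at 60 min, 69.6% were higher in the rad23Δ strain after centring, 30.5% on the deposited scale and 51.5% after quantile normalization. Of those called between psocs rad23Δ and psocs, 66.3% were higher after centring, 23.3% on the deposited scale and 44.9% after quantile normalization. URA5 was higher in both rad23Δ strains and past the threshold on all 3 scales.

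Where RAD23 was present, no member passed the test between the SOCS box mutant and wild-type RAD7. The plasmids also differ in the RAD7 signal, which cannot be told apart from the mutation. In psocs against pRAD7, 0 of 10 members passed by limma at any of the 3 times, and 0.0236% of all genes did at each time, which was RAD7 alone. At an unadjusted p under 0.05 it was also 0 of 10 members each time, with 61 genes untreated, 78 at 15 min and 114 at 60 min. The 95% confidence interval of the untreated log2 difference ran from -0.30 to 0.37 for URA1, from -0.23 to 0.31 for URA5 and from -0.42 to 0.94 for URA10. At 60 min it ran from -0.50 to 0.17 for URA1, from -0.85 to 0.20 for URA7 and from -0.29 to 1.07 for URA10. For the difference in the change at 60 min, the interval was -0.39 to 0.37 for URA5 and -0.40 to 0.49 for URA4.

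Same-numbered psocs and pRAD7 arrays deviated together, and a paired fit to only these arrays narrowed the intervals. At 60 min the paired log2 differences of URA7 were -0.29, -0.39 and -0.30, with a 95% interval of -0.54 to -0.11, and those of URA10 were 0.29, 0.48 and 0.40, with an interval of 0.14 to 0.64. URA8 differed by 0.28, 0.56 and 0.08. These 3 members had an unadjusted p under 0.05 and, like URA1 and URA5, the same sign in all 3 pairs. None passed over all genes (limma adjusted p = 0.524 for each). The share of all genes at that unadjusted p in the paired fit is not given here, so the count of 3 has no baseline. Untreated and at 15 min the paired fit called 0 of 10 members too, with 0 and 1 of 10 at an unadjusted p under 0.05.

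Between the rad23Δ strains, 0 of 10 members passed by limma untreated (0.0943% of all genes) or at 15 min (0.0236%), with 0 and 1 of 10 at an unadjusted p under 0.05. At 60 min URA1 passed, 1 of 10 members against 2.90% of all genes. It read 715 and 548 in psocs rad23Δ, against 1067 and 1073 in pRAD7 rad23Δ. The groups did not overlap, as for 32.4% of all genes that were lower without overlap. The log2 difference was -0.82 ± 0.20 (limma adjusted p = 0.0243), and the call was lost without pRAD7 rad23Δ replicate 1 (-0.86), pRAD7 rad23Δ replicate 2 (-0.78) or psocs rad23Δ replicate 2 (-0.58). The difference in the change of URA1 at 60 min between these strains was -0.65 ± 0.28 (adjusted p = 0.377).

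Other genes of pyrimidine metabolism were taken from a list, of which 17 had a named probe set and 16 were tested, with FCY22 too dim. At 60 min 9 of 16 fell and 3 rose in pRAD7 (36.1% and 28.7% of all genes), with a median log2 change of -0.96, and 9 fell and 3 rose in psocs (34.0% and 30.8%), with a median of -0.79. The largest called changes in pRAD7 were those of PHM8 (3.81 ± 0.37), a nucleotidase, FUR4 (-1.92 ± 0.24), the uracil permease, YNK1 (1.77 ± 0.23), the nucleoside diphosphate kinase, and FCY2 (-1.71 ± 0.31), a purine and cytosine permease. The uptake genes FUR4 and FCY2 also fell in both rad23Δ strains, FUR4 by 2.15 and FCY2 by 1.48 on the log2 scale in pRAD7 rad23Δ and by 1.55 and 1.70 in psocs rad23Δ. PPR1, the activator gene, fell in all 4 strains, by 1.07 to 1.28 on the log2 scale. Untreated, 0 of 16 differed between rad23Δ and RAD23 strains with either plasmid by limma, where 1.20% of all genes did with pRAD7 and 1.04% with psocs. At an unadjusted p under 0.05 it was 4 of 16 with pRAD7 and 5 of 16 with psocs. The share of all genes at that unadjusted p is not given for these comparisons, so the 2 counts are not read as a difference.

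CPA1, a subunit of the arginine pathway's carbamoyl phosphate synthetase, and SDT1, a pyrimidine nucleotidase, had the largest differences of these 16 between the strains in the change at 60 min with pRAD7. CPA1 read 2107 and 2131 at 60 min in pRAD7 rad23Δ, against 1422, 1395 and 1274 in pRAD7, where it had been 1366 and 1653 in untreated pRAD7 rad23Δ, against 1755, 2760 and 2131 in untreated pRAD7. SDT1 read 1214 and 1222 at 60 min in pRAD7 rad23Δ, against 601, 614 and 698 in pRAD7. For both genes the pRAD7 rad23Δ arrays at 60 min were above the pRAD7 arrays of that time, as for 48.2% of all genes after centring. The change at 60 min in the rad23Δ strain minus that in the RAD23 strain was 1.59 ± 0.25 for CPA1 (limma adjusted p = 4.7e-05) and 1.88 ± 0.28 for SDT1 (adjusted p = 2.8e-05) with pRAD7, and 1.13 ± 0.25 and 1.27 ± 0.28 (adjusted p = 0.0071 and 0.0069) with psocs. CDD1 (1.06 ± 0.28) and FCY1 (1.32 ± 0.43), the cytidine and cytosine deaminases, also passed with pRAD7.

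Genes of purine synthesis and of ribosome assembly were lower at 60 min as well. In pRAD7, where 36.1% of all genes fell, 13 of 19 purine genes fell and 1 rose, with a median log2 change of -0.99, and all 50 ribosome assembly genes fell, with a median of -2.27. In pRAD7 rad23Δ, where 28.2% of all genes fell, 10 of 19 and 44 of 50 fell, with medians of -0.64 and -1.69. At 15 min in pRAD7 0 of 19 purine genes were called by limma (3 had an unadjusted p under 0.05), while 25 of 50 ribosome assembly genes had fallen, against 14.2% of all genes.

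Over the 12 group means, the members did not share one pattern. URA7 and FUR1 correlated at a Pearson r of 0.982, URA5 and URA6 at 0.961, URA1 and URA4 at 0.953 and URA8 and URA10 at 0.934, while URA10 and FUR1 lay at -0.902. Group means share the UV times and strains, so that these values are a description only. The tested genes most like URA7 were TRM1 (r = 0.998), a tRNA methyltransferase, and ERB1 (0.998) and SAS10 (0.997), both of ribosome assembly. Those most like URA1 were PHO5 (0.959), URA4 (0.953) and ILV2 (0.951), the acid phosphatase and an enzyme of branched-chain amino acid synthesis besides the member. Those most like URA5 were OLA1 (0.997) and the ribosomal protein genes RPL36B (0.990) and RPL31A (0.988).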

How the data were processed

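RNA from 30 yeast samples was hybridised to Affymetrix Yeast S98 arrays, 1 colour, 1 sample per array. The deposited intensity values are linear MAS5 signals that the authors made in Affymetrix Expression Console, with every array scaled to a trimmed mean of 500.3 to 500.5. Software versions and the genome build were not given in the sources used here. Such scaling sets the mean of each array equal, so that a change in many strong genes moves all others. Of 9335 probe sets, 60 were controls, 6504 had 1 gene name, 328 several and 2443 none. Names were updated through the R64 gene table of RefSeq.

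Signals under the 10th percentile (8.50) were set to it, log2 was taken, and arrays, whose medians ran from 6.81 to 7.28, were centred on the median of the medians (shifts of -0.33 to 0.13). Over all genes tested, the median change at 60 min was -0.11 in pRAD7 after centring and 0.16 on the deposited scale. The brightest probe set stood for each gene, and dim genes, below the 25th percentile of gene means (log2 6.53), were dropped, which left 4242 of 5656. In R 4.3.3, limma 3.58.1 fitted the means of all groups together, with trended eBayes, and gave 34 contrasts, each adjusted on its own by Benjamini-Hochberg at 0.05. Groups are from the labels. Figures were drawn with matplotlib 3.10.9. The fit was tested on simulated data. Arrays give no count depth, and the number of arrays limits the precision.

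Every member is named. Of the other pyrimidine genes past the threshold, the 4 with the largest changes were to be named per comparison, given here for the change at 60 min in pRAD7 and for the difference between pRAD7 rad23Δ and pRAD7 in that change; FUR4, FCY2, PPR1, CPA1 and SDT1 are followed in other comparisons. Members and lists were chosen with earlier results of these data known. A listed gene is not reported here. Same-numbered arrays deviated together in psocs minus pRAD7 at each time (r of 0.15 to 0.60 over genes) and in psocs 60 min minus untreated (0.18 to 0.51). The replicate number was taken as pairing there, from the data and not from the labels. In that last comparison replicate 3 reached 0.34 with its own number and 0.35 with another. In the other comparisons of 3 pairs r was not over 0.1 in every pair, though single pairs reached 0.32 (psocs 15 min minus untreated, replicate 3). Alternatives were no filter and a stricter one (50th percentile), no floor, no centring, quantile normalization, the mean of all probe sets, a fit to only the groups compared, a replicate block, and leaving out each array. After seeing the data, a block crossed with RAD23 state, a crossed block, a fit without 2 arrays and a paired fit to only the groups whose numbers pair were added. Promoter motifs were not searched and no coordinates are given.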

Additional observations from a re-analysis of the deposited data

Results flagged for a closer look

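The values flagged here are differences between strains in the log2 change 60 min after UV that passed limma's test of the difference itself. Groups of 2 or 3 arrays are too small to test for a single outlying array.

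With pRAD7, the change in the rad23Δ strain minus that in the RAD23 strain was 1.25 for URA1, 1.19 for URA4, 1.10 for URA5 and 1.07 for FUI1. The rad23Δ arrays read lower than the RAD23 arrays before UV for URA1, URA4 and FUI1, and higher at 60 min for URA5. With psocs, the change in the rad23Δ strain minus that in the RAD23 strain was 0.83 for URA4 and 0.80 for URA5. For psocs rad23Δ minus pRAD7, which shares its rad23Δ arrays with the comparison before it, the difference was 0.87 for URA4 and 0.78 for URA5. RAD23 loss, the URA3 marker and the shift by centring moved with these differences, and the part of the marker cannot be told apart from that of RAD23.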

How the results depend on the processing

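Results here are counts of the 10 members past limma's threshold. In 21 of 34 comparisons they stayed within 1.5 times of the reported count under every alternative run, no called member changed sign, and a change of call was not traced to a cause. Those 21 include comparisons whose count was 0 and stayed 0, such as psocs minus pRAD7 at each time and every difference between strains in the 15 min change. For these the stable count does not show that any call is robust. No floor and the mean of all probe sets changed no call. Without the filter, URA4 in psocs rad23Δ against psocs at 15 min made a count of 2, not 1. The stricter filter, which leaves URA10 untested, gave 0, not 1, in psocs at 15 min. Without centring the count was 2, not 1, in psocs at 15 min, pRAD7 rad23Δ against pRAD7 untreated and psocs rad23Δ against psocs at 15 min. It was 0, not 1, in pRAD7 rad23Δ at 15 min and 0, not 2, for both differences in the 60 min change of psocs rad23Δ. Quantile normalization gave the same counts, except 1 for psocs rad23Δ against psocs. A fit to only the groups compared gave 0, not 1, in pRAD7 rad23Δ at 15 min and in both rad23Δ comparisons at 15 min, 1, not 2, between psocs rad23Δ and psocs untreated, 1, not 3, at 60 min, and 0, not 2, for their 60 min change. Without the 2 arrays of low stress signal the count was 0 in pRAD7 rad23Δ and 1 in psocs rad23Δ at 15 min.

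With a replicate block the count was 2, not 1, in psocs at 15 min, where URA8 joined URA10, and the block changed no other count beyond 1.5 times; URA1 in the 60 min change of psocs rad23Δ against psocs also passed (0.79, adjusted p = 0.0466), as did URA10 between 15 and 60 min in psocs (0.73) and psocs rad23Δ (0.99). In psocs minus pRAD7 and psocs at 60 min, where the numbers pair, the block changed no call, also in a fit to only those groups. The block crossed with RAD23 state gave 4 in psocs at 15 min, 0 in pRAD7 rad23Δ against pRAD7 at 15 min, 2 between the rad23Δ strains at 60 min and 4 for the 60 min change of psocs rad23Δ against psocs. Crossed pairing, tried where 2 groups of 2 arrays deviated in opposite ways, gave 1, not 0, in psocs rad23Δ at 15 min.

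Leaving out 1 array, with a lone array then assumed to vary like the others, gave counts of 1 to 5 in pRAD7, 0 to 3 in psocs, 0 to 0 in pRAD7 rad23Δ and 0 to 1 in psocs rad23Δ at 15 min. For rad23Δ against RAD23 it gave 1 to 2 (untreated), 0 to 1 (15 min) and 2 to 4 (60 min) with pRAD7, and 1 to 2 (untreated) with psocs. It gave 0 to 1 between the rad23Δ strains at 60 min, and 0 to 3 against psocs and 1 to 2 against pRAD7 for the 60 min change of psocs rad23Δ.

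Over all genes, a fit to only the groups compared called 11 genes, not 626, in pRAD7 rad23Δ and 67, not 716, in psocs rad23Δ at 15 min, and 16, not 51, and 9, not 44, between untreated rad23Δ and RAD23 strains with pRAD7 and psocs. Without centring these last were 82 and 69. Without the 2 arrays of low stress signal, 55 genes, not 4, were called between pRAD7 rad23Δ and pRAD7 at 15 min, and 123 genes between the rad23Δ strains at 60 min became 201. Of the genes called at 60 min, 44.3% were higher in pRAD7 after centring and 60.3% without it, and 61.9% against 21.1% for the change in pRAD7 rad23Δ minus pRAD7.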
